A study of Mus musculus with 96 samples.

Results

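Sarcolipin and its partners in the sarcoplasmic reticulum, the calcium store of muscle cells, were followed through every library of the study. The 6 genes were Sln, Pln, Atp2a1, Ryr1, Casq1 and Casq2, which are 6 of the 41575 gene symbols counted. They were selected by name for their place in calcium handling, with their levels in these libraries already known, so that their levels and their differences between genotypes are a description and carry no test. The study asked which tissues change when the gene for the transcription factor scleraxis, Scx, is knocked out in the mouse. RNA was sequenced from 96 libraries, 3 wild-type and 3 Scx-/- in each of 16 tissues, all from mice 3 weeks old. The tissues were muscle, heart, vascular, bone, cartilage, adipose, the organs rectum, bladder, stomach and intestine, then lung, liver, kidney and spleen, and from the brain hippocampus and cortex. The knock-out is of the whole animal, and neither the deleted part of Scx, nor the mouse behind each library, nor the muscle or the part of the heart that was taken is given in the sources used here. Levels are CPM, a gene's count scaled to the total count of its library. In bulk tissue, fewer cells of a type and less RNA per cell cannot be told apart.

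A muscle fibre contracts when calcium leaves the sarcoplasmic reticulum and relaxes when a pump returns it. The channel that opens is a ryanodine receptor, of which Ryr1 is the skeletal muscle form. The pump is a SERCA calcium ATPase: Atp2a1 encodes the form of fast skeletal fibres, and Atp2a2 that of heart and slow fibres. Sarcolipin (Sln) and phospholamban (Pln) are small membrane peptides that bind the pump and lower its activity, and in rodents Sln is best known from the atria and Pln from the ventricles. Inside the store, calcium is held by calsequestrin, in the skeletal form Casq1 and the cardiac form Casq2.

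The 2 pump inhibitors are shown by their reading frames, since their small size sets them apart from the other members. Each frame lies in 1 exon of a transcript of 2 exons. The Sln frame, of 31 codons before the stop, is at chr9:53853473-53853568 on the plus strand, and the Pln frame, of 52 codons, is at chr10:53343864-53344022 on the plus strand (GENCODE M21, mouse build mm10). Capitals mark the start and stop codons.
Sln: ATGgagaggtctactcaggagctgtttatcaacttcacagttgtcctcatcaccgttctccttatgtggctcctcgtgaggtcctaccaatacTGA
Pln: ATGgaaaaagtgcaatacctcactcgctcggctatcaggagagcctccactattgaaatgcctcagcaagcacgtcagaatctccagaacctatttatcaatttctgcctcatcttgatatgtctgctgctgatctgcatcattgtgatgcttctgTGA
The genes span chr9:53850164-53854560 (Sln, plus strand), chr10:53337667-53345987 (Pln, plus), chr7:126445858-126463108 (Atp2a1, minus), chr7:29003344-29125179 (Ryr1, minus), chr1:172209894-172219868 (Casq1, minus) and chr3:102086415-102146514 (Casq2, plus). Sln overlaps no other annotated gene. Pln lies within Cep85l on the opposite strand, the 3′ end of Atp2a1 overlaps Rabep2, and Casq1 and Ryr1 overlap annotated antisense genes. Whether reads were counted by strand is not given, so reads of these overlapping genes cannot be told apart.

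Library totals ran from 11244 to 1658192 counts (median 251640), and 16 libraries held fewer than 100000. Wild-type heart replicate 2, with 11244 counts, and wild-type muscle replicate 1, with 30409, were the shallowest of their tissues. Also under 100000 were 3 rectum libraries (wild-type replicates 2 and 3 and Scx-/- replicate 1, with 83150, 49764 and 78710 counts), 3 bone libraries (42272 to 59763 counts), 4 intestine libraries (26500 to 93927 counts), and 2 each of lung and vascular. Scx itself had counts in 12 of 48 wild-type libraries and in 1 of 48 Scx-/- libraries. That library, labelled Scx-/- cartilage replicate 1, held 9 counts (37.2 CPM), more than the 0, 7 and 1 counts of the wild-type cartilage libraries, so that a direction in cartilage rests on a label that Scx goes against. All 3 heart and all 3 rectum libraries of each genotype were at 0 for Scx, which leaves their labels unchecked by this gene. Scx-/- rectum replicate 1 stood apart in 6 smooth muscle genes, with a summed level of 1474 CPM against 16670 and 14702 CPM in the other Scx-/- and 19030 to 21971 CPM in the wild-type rectum libraries. Scx-/- vascular replicate 3 held 1341 CPM of 6 ventricular genes, against 0 to 32.1 CPM in the other 5.

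The 6 members fell into a skeletal and a cardiac pattern, with Sln between them. Atp2a1, Casq1 and Ryr1 had the same order of tissues at the top, muscle, then cartilage, then bone. Pln and Casq2 were highest in heart. Sln had its highest mean in heart, but the ranges of heart, cartilage, muscle, rectum and bone all overlapped with their neighbours in the order. Across the 96 libraries, Atp2a1 was counted in 78, Casq1 in 65, Pln in 55, Ryr1 in 52, Casq2 in 47 and Sln in 44.

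**Figure D1:**
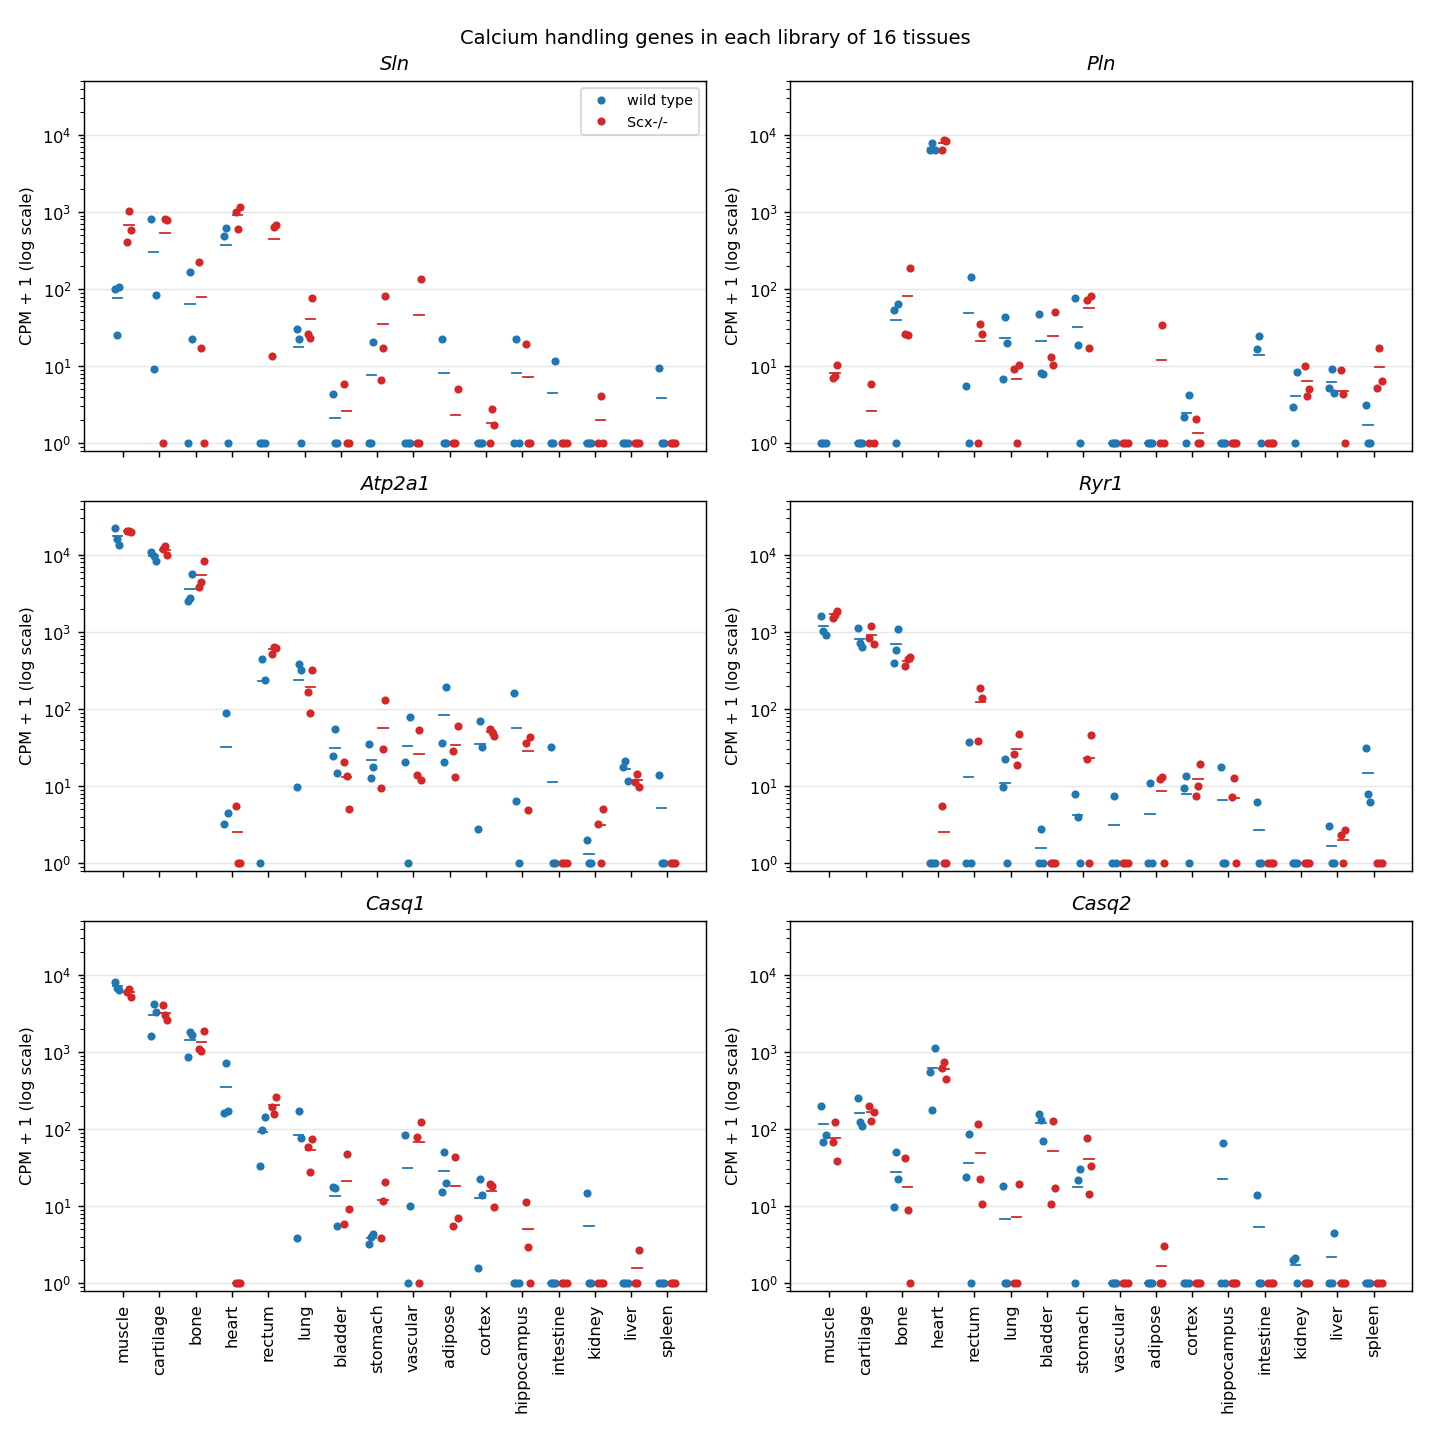
Level of each member in every library of 16 tissues, as CPM + 1 on a log scale (points, wild type blue and Scx-/- red; short lines are the means of 3 libraries). Atp2a1, Ryr1 and Casq1 stand highest in muscle, cartilage and bone, Pln is at 6308 CPM or more in each heart library and at most 189 CPM elsewhere, and the points of Sln spread widely within single tissues.

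In muscle, Sln was low in all wild-type libraries and high in all Scx-/- libraries. The wild-type libraries held 98.7, 24.1 and 105 CPM (3, 21 and 50 counts), and the Scx-/- libraries 405, 1033 and 589 CPM (341, 798 and 510 counts). The lowest Scx-/- library was thus above the highest wild-type library, and the groups did not overlap. Group means were 76.1 ± 45.1 CPM (SD, n = 3) in wild-type and 675 ± 323 CPM (SD, n = 3) in Scx-/- muscle, 8.88-fold apart. In the fit across all genes of muscle (edgeR's quasi-likelihood test), the log2 fold change was 3.55 (SE 0.62), and it lay between 3.05 and 4.56 when each library was left out in turn. Without the shallow wild-type replicate 1 it was 3.52.

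The pump that Sln binds overlapped between the genotypes when the shallow wild-type replicate 1 was included. Atp2a1 was measured at 22625, 16191 and 13482 CPM in wild-type muscle and at 20283, 20623 and 19932 CPM in Scx-/- muscle, with overlapping ranges and a log2 fold change of 0.67 (SE 0.29). Per 1000 counts of Atp2a1, the wild-type muscle libraries held 4.36, 1.49 and 7.82 counts of Sln and the Scx-/- libraries 19.9, 50.1 and 29.5. The groups did not overlap on this scale either.

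The remaining skeletal members overlapped between the genotypes in muscle. Ryr1, the release channel, held 1611, 1035 and 913 CPM in wild-type and 1506, 1655 and 1899.96 CPM in Scx-/- libraries. Casq1, the main calcium binder of the skeletal store, was at 8155, 6761 and 6369.7 CPM against 6069, 6572 and 5146 CPM. The highest wild-type value of Atp2a1, Ryr1 and Casq1 came from the shallow replicate 1, and without it the groups did not overlap in Atp2a1 or Ryr1, with log2 fold changes of 0.60 and 0.93. Pln was at 0 in the 3 wild-type muscle libraries and at 5.93, 6.47 and 9.23 CPM (18 counts in all) in Scx-/- muscle, which is at least 3.33-fold higher against a floor of 3 counts over the wild-type group, but at least 1.22-fold without wild-type replicate 2 and 2.18-fold without wild-type replicate 3.

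Fibre type markers that moved beside Sln in muscle are given as measured. The summed level of 9 fast skeletal genes, all 9 counted in each library, was 118353, 114918 and 131459 CPM in wild-type and 137340, 139917 and 135024 CPM in Scx-/- muscle, with no overlap. Of these genes, Myh2 (means of 1367 and 751 CPM) and Mybpc2 (3584 and 3057 CPM) were lower in Scx-/- muscle, and the means of the rest were higher. A further 4 slow skeletal genes summed to 987, 493 and 1331 CPM in wild-type and to 415, 136 and 128 CPM in Scx-/- muscle, with no overlap. Tnnt1 and Tnni1 did not overlap on their own, and Myoz2 did (104 to 428 against 58.2 to 235 CPM). Myh7b had means of 1.15 CPM in wild-type and 4.75 CPM in Scx-/- muscle. The study named Tnnt1 and Tnni1 as lower in Scx-/- muscle from these same libraries, so their direction is not independent evidence. The 6 ventricular genes, some of them also used by slow fibres, summed to 434 to 1867 CPM in wild-type and to 36.9 to 184 CPM in Scx-/- muscle. The developmental myosin genes Myh3 and Myh8 summed to 0, 11.5 and 69.6 CPM in wild-type and to 28.5, 215 and 50.8 CPM in Scx-/- muscle, with overlap, and the library with 215 CPM was also the one with the most Sln. Of 4 atrial genes, Myl7, Nppa and Sbk2 were at 0 in all 6 muscle libraries, and Myl4 ranged from 0 to 43.9 CPM. The part of the fibre types in the level of Sln was not tested.

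Cartilage libraries held skeletal muscle RNA beside their cartilage genes, and Sln varied there from 8.06 to 817 CPM in wild-type and from 0 to 803 CPM in Scx-/- libraries. The 9 fast skeletal genes summed to between 57489 and 74664 CPM in the 6 cartilage libraries, next to 1953 to 13215 CPM of 5 cartilage genes such as Col2a1. Atp2a1 was even across them, at 10885, 9806 and 8322 CPM in wild-type and 12016, 13192 and 9988 CPM in Scx-/- libraries. Sln was at 817, 8.06 and 83.4 CPM in the wild-type libraries and at 0, 803 and 779 CPM in the Scx-/- libraries.
The library at 0 is the one labelled Scx-/- in which Scx was counted, and the wild-type library at 817 CPM held no count of Scx. Per 1000 counts of Atp2a1, Sln stood at 75.1, 0.82 and 10.02 in the wild-type and at 0, 60.9 and 78.0 in the Scx-/- cartilage libraries. The fitted log2 fold change was 0.81 (SE 2.31), 1.41 without the library labelled Scx-/- replicate 1 and 3.58 without wild-type replicate 1, and at its lowest 0.23 without wild-type replicate 2.

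In rectum, Sln was high in 2 of the 3 Scx-/- libraries and not counted in wild type. None of its 3 wild-type libraries held a count, while the Scx-/- libraries held 12.7, 646 and 672 CPM (1, 149 and 211 counts). Pooled over the libraries, Scx-/- rectum was at least 67.6-fold higher against a floor of 3 counts over the wild-type group. Without wild-type replicate 1, which held the most counts and the least fast skeletal RNA, the bound was 25.7-fold. Replicate 1 of Scx-/-, with 1 count, is the library lowest in smooth muscle genes, and its level cannot be told from the wild-type libraries, in which a floor of 3 counts was 13.8, 36.1 and 60.3 CPM. Without it the groups did not overlap.

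The 3 skeletal members were also higher in the Scx-/- rectum libraries, by margins that were small in counts for the nearest libraries of Ryr1 and Casq1. Atp2a1 was at 0, 445 and 241 CPM in wild-type and at 521, 646 and 621 CPM in Scx-/- rectum. Ryr1 stood at 0, 36.1 and 0 CPM (0, 3 and 0 counts) against 38.1, 186 and 140 CPM (3, 43 and 44 counts), so that Scx-/- replicate 1 cannot be told from wild-type replicate 2. Casq1 was at 32.2, 96.2 and 141 CPM (7, 8 and 7 counts) against 191, 156 and 261 CPM (15, 36 and 82 counts), and the nearest libraries, at 141 and 156 CPM, differed by less than counting error on 7 counts. The sum of 9 fast skeletal genes was also higher in each Scx-/- library, at 46.0, 2646 and 2391 CPM in wild-type and 4231, 6170 and 3898 CPM in Scx-/- rectum, and 5 of the 9 did not overlap on their own, while Myh4, Mylpf, Actn3 and Mybpc2 did. Smooth muscle genes went the other way, with all 3 Scx-/- sums below the wild-type sums and 4 of 6 genes (Acta2, Myh11, Smtn and Actg2) not overlapping.
Myh8, the perinatal myosin heavy chain, had a mean of 13.4 ± 23.2 CPM (SD, n = 3) in wild-type and 721 ± 600 CPM (SD, n = 3) in Scx-/- rectum, with overlap, since the lowest Scx-/- library (38.1 CPM) was below the highest wild-type one (40.2 CPM). Per 1000 counts of Atp2a1, Sln was at 24.4, 1000 and 1082 in the Scx-/- rectum libraries, above the 19.9 to 50.1 of Scx-/- muscle in both libraries with over 100 counts of Sln. Atrial genes reached at most 6.37 CPM in rectum. The part of skeletal and smooth muscle tissue in these levels was not tested.

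**Figure D2:**
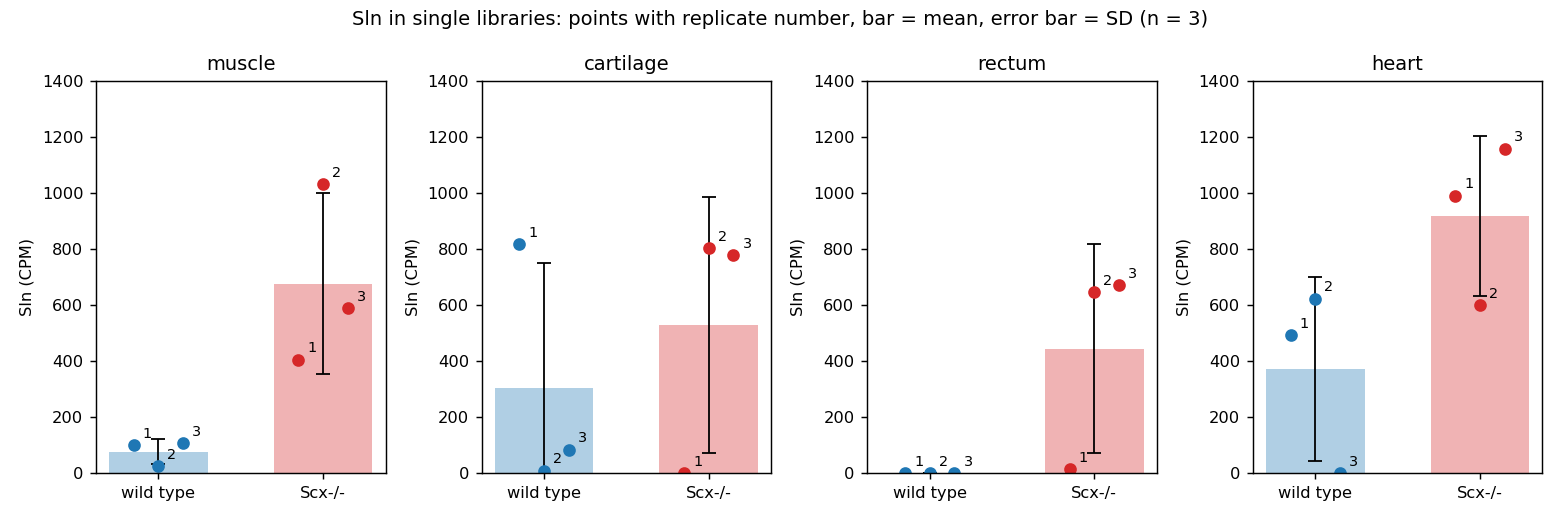
Sln in the single libraries of muscle, cartilage, rectum and heart, in CPM (points, with the replicate number; bars are means and error bars SD, n = 3). The genotypes separate in muscle, in rectum Scx-/- replicate 1 (1 count) lies near the wild-type libraries at 0, in cartilage 1 library of each genotype lies with the other genotype's main group, and in heart wild-type replicate 2 (623 CPM) lies above Scx-/- replicate 2 (601 CPM).

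In heart, Sln overlapped between genotypes, and the sum of 4 atrial genes was higher in each Scx-/- library than in each wild-type one. It was at 493, 623 and 0 CPM in wild-type and at 991, 601 and 1158 CPM in Scx-/- hearts. The wild-type library at 0 held 281535 counts in total, so its floor of 3 counts was 10.7 CPM, whereas the 623 CPM of wild-type replicate 2 rested on 7 counts. The 4 atrial genes Myl7, Myl4, Nppa and Sbk2 summed to 4285, 356 and 217 CPM in wild-type and to 7241, 5181 and 6669 CPM in Scx-/- hearts. Nppa, the atrial natriuretic peptide, accounted for the largest part in Scx-/- hearts, with a mean of 3521 ± 691 CPM (SD, n = 3), and Sbk2 was at 0 throughout. Nppa and Myl4 did not overlap between the genotypes, and Myl7 did.
The fitted log2 fold change of Sln was 1.66 (SE 0.77), with 1.59 after leaving out the shallow wild-type replicate 2 and it ranged from 1.04 without wild-type replicate 3, the library at 0, to 3.30 without wild-type replicate 1. The part of the amount of atrial tissue in this difference was not tested.

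Pln was the most even of the members in heart. It held 6308, 7915 and 6329.6 CPM in wild-type and 6465, 8673 and 8259 CPM in Scx-/- hearts, with overlapping ranges and a log2 fold change of 0.36 (SE 0.65). Its mean over 6 heart libraries was 124-fold that of bone, the next tissue, and no library outside heart exceeded 189 CPM. Of the counts of both inhibitors in a heart library, Sln took 7.25% (95% Clopper-Pearson interval 6.35% to 8.24%), 7.29% (2.98% to 14.4%) and 0% (up to 0.207%) in wild-type hearts, and 13.3%, 6.48% and 12.3% in Scx-/- hearts. The 6 ventricular genes had overlapping sums of 42923, 32462 and 46470.2 CPM in wild-type and 55968, 51944 and 44939.8 CPM in Scx-/- hearts, and 3 of them (Tnnt2, Myh6 and Nppb) were higher in each Scx-/- heart than in each wild-type one. Nppb was at 0 in wild-type and at 12.5 to 26.9 CPM in Scx-/- hearts, where floors of 3 counts were 13.7 to 18.8 CPM. The floor of wild-type replicate 2 was 267 CPM. Whether the genes of this list tell ventricle from atrium was not tested.

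Casq1 was found in every wild-type heart library and in no Scx-/- heart library. The wild-type libraries held 161, 711 and 170 CPM (71, 8 and 48 counts), and all 3 Scx-/- libraries were at 0, with single-library floors of 13.7, 18.8 and 16.2 CPM. Pooled, Scx-/- hearts were at least 32.6-fold lower against a floor of 3 counts over the group, and at least 19.96-fold without Scx-/- replicate 1. The separation held also without the shallow replicate 2, which gave 711 CPM from 8 counts and also stood apart in smooth muscle genes, at 6314 CPM (6 genes summed) against 549 to 1677 CPM in the other 5 hearts. The sum of the fast skeletal genes overlapped between the genotypes, at 13.6, 88.9 and 10.7 CPM in wild-type and 95.9, 163 and 16.2 CPM in Scx-/- hearts, and Atp2a1 had 1 count in each wild-type library and in Scx-/- replicate 1. The part of other tissue in the level of Casq1 was not tested.

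**Figure D3:**
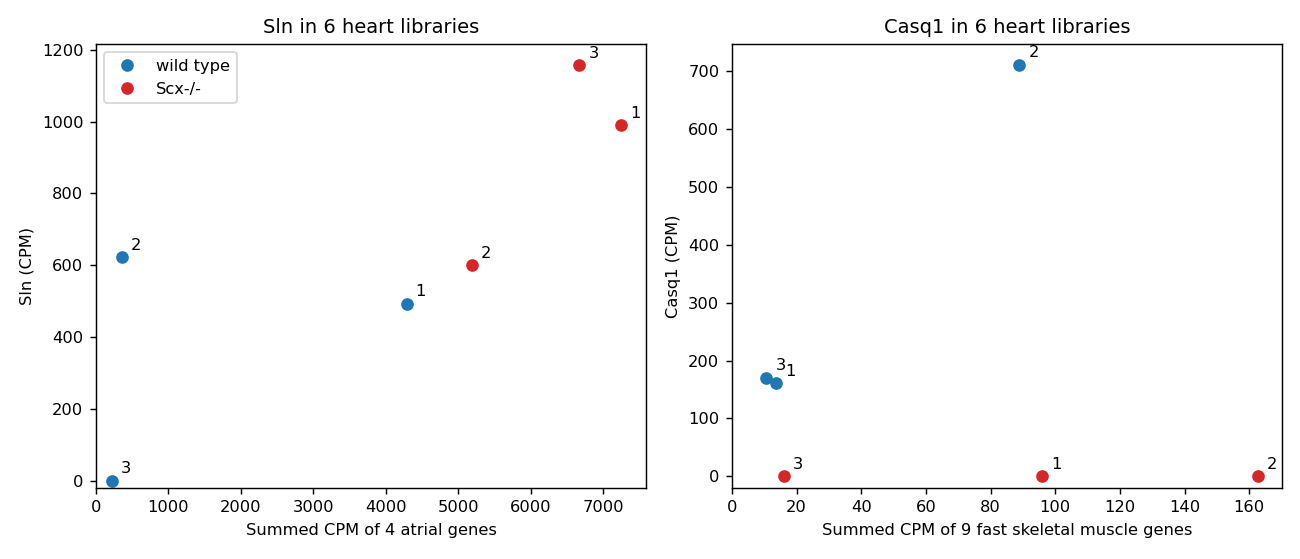
Left, Sln against the summed level of 4 atrial genes, and right, Casq1 against the summed level of 9 fast skeletal genes, both in CPM, in 6 heart libraries (wild type blue, Scx-/- red, numbers are replicates). Sln is highest in Scx-/- libraries 3 and 1, which also have the highest atrial sums, while Casq1 is at 0 in all 3 Scx-/- libraries, whose fast skeletal sums run from 16.2 to 163 CPM.

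Casq2, the cardiac calsequestrin, overlapped between the genotypes in heart. Its levels were 555, 178 and 1126 CPM in wild-type and 616, 732 and 442 CPM in Scx-/- hearts. Casq1 made up 22.5% (95% Clopper-Pearson interval 18.0% to 27.6%) and 13.2% (9.86% to 17.1%) of the counts of both calsequestrins in the wild-type hearts with at least 20 such counts, and 0% in the 3 Scx-/- hearts, with upper limits between 2.70% and 4.40%. In muscle the share of Casq1 was 98.5% ± 0.724 (SD, n = 3) in wild-type and 98.8% ± 0.571 (SD, n = 3) in Scx-/- libraries.

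Outside heart, Casq2 was also found in bladder, which held 155, 132 and 68.6 CPM in wild-type and 9.69, 128 and 16.5 CPM in Scx-/- libraries. The bladder libraries held 27046 to 53629 CPM of 6 smooth muscle genes and 643 to 1635 CPM of 6 ventricular genes. Casq2 was at 0 in all 6 vascular libraries (floors of 8.46 to 38.9 CPM), which held 4854 to 11927 CPM of the smooth muscle genes. Stomach, with 5182 to 9494 CPM of the smooth muscle genes, had Casq2 in 5 of 6 libraries, at up to 75.7 CPM. In rectum Casq2 reached 114 CPM. In bladder, Casq1 took 9.90%, 10.8% and 6.25% of the counts of both calsequestrins in the wild-type libraries and 26.8% in Scx-/- replicate 2, the Scx-/- library with at least 20 such counts. Cartilage held 109 to 253 CPM of Casq2 and muscle 38.1 to 197 CPM, the latter highest in the shallow wild-type replicate 1 with 6 counts.

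The pump pair switched between tissues as the calsequestrins did. Atp2a1 took 98.1% ± 0.809 (SD, n = 3) of the counts of Atp2a1 and Atp2a2 in wild-type muscle and 99.7% ± 0.067 (SD, n = 3) in Scx-/- muscle, with ranges of 97.2% to 98.7% and 99.6% to 99.7% that did not overlap. In heart its share was at most 1.61% in any library. In rectum the 3 Scx-/- libraries stood at 60.6% to 67.2%, and the 2 wild-type libraries with at least 20 such counts at 0% and 60.7%.

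**Figure D4:**
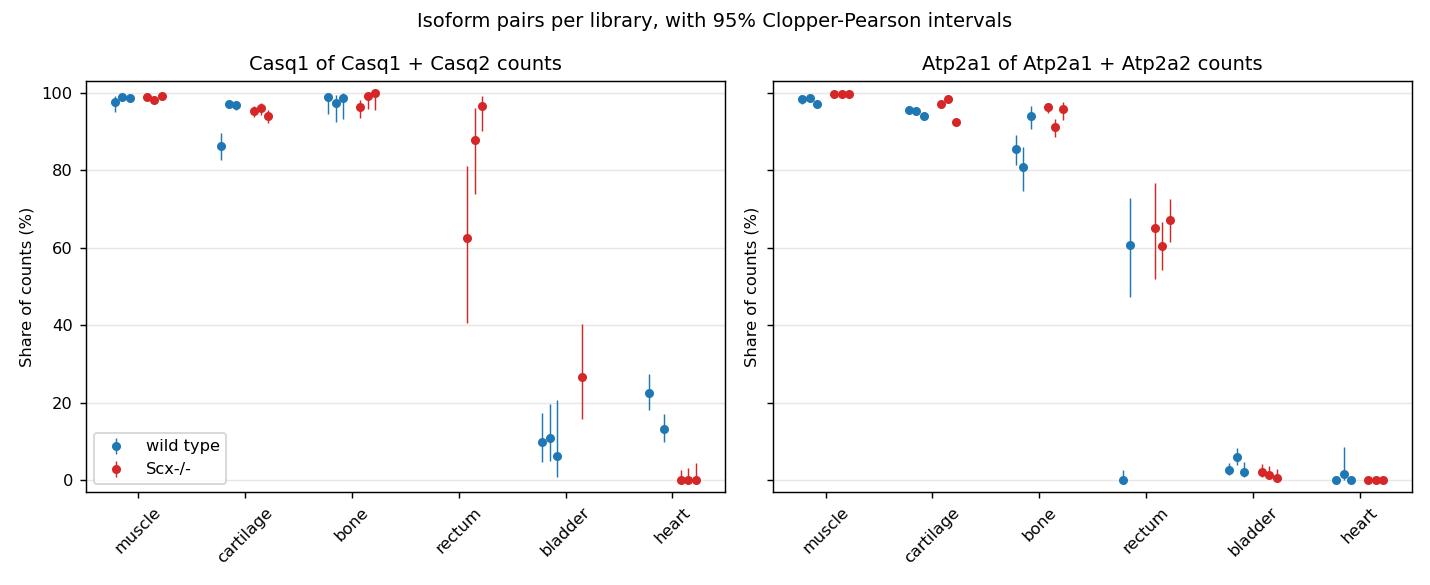
Share of Casq1 in the counts of Casq1 and Casq2 (left) and of Atp2a1 in the counts of Atp2a1 and Atp2a2 (right), in percent, per library with at least 20 summed counts (points, with 95% Clopper-Pearson intervals; wild type blue, Scx-/- red). Both skeletal forms take nearly all counts in muscle and few in heart, where Casq1 is at 13.2% and 22.5% in wild-type libraries and at 0% in Scx-/- libraries.

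In bone, all 3 skeletal members were present in each library and overlapped between genotypes. Atp2a1 was at 2496, 2744 and 5707 CPM in wild-type and at 3866, 4474 and 8374 CPM in Scx-/- bone. Ryr1 lay between 362 and 1103 CPM and Casq1 between 858 and 1893 CPM over the 6 libraries. Sln was at 0, 167 and 21.2 CPM in wild-type and at 220, 16.1 and 0 CPM in Scx-/- bone, with 1 library of each genotype well above the others. The 9 fast skeletal genes summed to 12048 to 41233 CPM in these libraries, and 5 osteoblast genes to 1740 to 3693 CPM.

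Lower levels were found in a few other tissues. Lung held 8.77 to 385 CPM of Atp2a1 and 0 to 74.6 CPM of Sln, beside atrial genes at 132 to 508 CPM and fast skeletal genes at 90.7 to 3873 CPM, the latter lowest and highest in the same libraries as Atp2a1. In vascular samples Sln was found in 1 of 6 libraries, Scx-/- replicate 3, at 134 CPM (12 counts), which is the library with ventricular genes and which held 738 CPM of the atrial genes against at most 6.47 CPM in the others. Brown fat genes summed to 3499 to 13122 CPM in the 6 vascular libraries. The study left vascular samples out of its later analysis for signs of brown fat. In stomach, Sln was at 0, 0 and 19.8 CPM in wild-type and at 5.71, 16.1 and 81.1 CPM in Scx-/- libraries, with overlap. Liver had no count of Sln in 6 libraries, intestine (with floors up to 113 CPM) and spleen none of Casq1, and kidney none of Ryr1.

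The members' separations between genotypes are given beside those of all genes. At a mean of at least 20 CPM, 1 of 5 members in muscle (Sln) did not overlap between the groups of 3, against 13.2% of all genes at that level. In heart it was 1 of 4 members (Casq1) against 11% of genes, in bone 0 of 6 against 9.54%, and in cartilage 0 of 5 against 9.73%. Rectum had 4 of 6 members (Sln, Atp2a1, Ryr1 and Casq1), all higher in Scx-/-, against 12.1% of genes in either direction, with the limits in counts given above for Sln, Ryr1 and Casq1.
By edgeR at an adjusted p of 0.05, 1 member was called in muscle (Sln), where 0.0482% of genes were, and 1 in heart (Casq1), where 0.0391% were. No member was called in bone (0% of genes, with 437 of 12344 at an unadjusted p under 0.05 and 1 called by DESeq2) or in cartilage (0.0222%), by edgeR or by DESeq2, and none was at an unadjusted p under 0.05 there. Since the members were selected with these differences known, nothing is read from these counts. Without the shallow wild-type replicate 1, 3 members were called in muscle (Atp2a1, Ryr1 and Sln), where 0.409% of genes were. The call of Sln in muscle was lost when Scx-/- replicate 2 was left out, and that of Casq1 in heart when any single Scx-/- replicate was.

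The patterns of the members over the 32 means of tissue and genotype were compared with those of 15478 genes by Pearson's correlation of log2(CPM + 1), as a description. Libraries of these means differ in depth and in how much muscle they hold. Atp2a1 was most like Tnnt3 (r = 0.98), the fast skeletal troponin T, followed by Myl1, Tnnc2, Myh1 and Mylpf, all of the fast contractile apparatus. Ryr1 was nearest to Myoz1 (r = 0.97) and Actn3, and Casq1 to Tnnt3 (r = 0.92), Cilp and Myl1, followed by Atp2a1 itself and Acta1.
Pln was nearest to Nppa (r = 0.81), followed by Tecrl, Gm19277, Lrrc10 and Mov10l1. Casq2 was most like Tpm1 (r = 0.90), a tropomyosin of striated and smooth muscle, followed by Popdc2, Apobec2, Ckmt2 and Hspb7. Among the nearest genes of Sln were Klhl41 (r = 0.87), Myom2, Lmod2 and Klhl31, of which Myom2 and Lmod2 encode sarcomere proteins. Between members, r was 0.93 for Atp2a1 with Ryr1 and 0.91 for Atp2a1 with Casq1, and for Sln 0.73 with Casq2, 0.66 with Casq1, 0.64 with Atp2a1, 0.63 with Ryr1 and 0.39 with Pln.

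Stretches of 250 bases before the start of 5 of the 6 members were read from RefSeq (GRCm38.p6), and Sln had no entry. They are shown for Atp2a1 and Casq1, which had alike patterns over the tissues, and for Pln, which had another. Capitals mark matches to the E-box CANNTG, the site class of bHLH factors such as scleraxis, or to TATAAA. Positions are chr7:126463074-126463323 on the minus strand for Atp2a1, chr1:172219896-172220145 on the minus strand for Casq1 and chr10:53337436-53337685 on the plus strand for Pln.
Atp2a1: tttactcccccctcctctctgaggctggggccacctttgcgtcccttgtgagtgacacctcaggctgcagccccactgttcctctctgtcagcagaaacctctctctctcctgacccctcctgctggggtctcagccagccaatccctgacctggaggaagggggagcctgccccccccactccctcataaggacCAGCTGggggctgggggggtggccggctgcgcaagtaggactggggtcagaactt
Casq1: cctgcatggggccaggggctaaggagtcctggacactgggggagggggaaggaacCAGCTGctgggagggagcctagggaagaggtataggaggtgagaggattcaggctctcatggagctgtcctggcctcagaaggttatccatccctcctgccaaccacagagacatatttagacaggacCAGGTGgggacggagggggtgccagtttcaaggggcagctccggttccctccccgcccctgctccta
Pln: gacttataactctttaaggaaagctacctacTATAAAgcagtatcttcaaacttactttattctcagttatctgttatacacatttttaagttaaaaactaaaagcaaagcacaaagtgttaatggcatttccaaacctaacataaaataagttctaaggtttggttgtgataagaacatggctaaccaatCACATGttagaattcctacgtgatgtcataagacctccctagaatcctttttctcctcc
An E-box began 55 bases before the start in Atp2a1, 67 and 195 bases before it in Casq1, and 59 bases before it in Pln. Casq2 also held a pair of E-boxes, and Ryr1 held none in this window. Such a match was present in 66.0% of 27025 mouse promoters of the same length, so it is a common feature. The MEF2-like motif, CTA and TAG with any 4 bases between them (3.23% of promoters) and CATTCC (12.6%), searched on both strands as the other motifs were, had no match in the 5 members, and TATAAA (12.97%) had 1, in Pln.

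The other genes of calcium handling were taken from a list of 35, of which 34 were in the table. Between heart and muscle, over 6 libraries each with genotype as a covariate, 19 of 32 tested genes were called at an adjusted p of 0.05 by edgeR's quasi-likelihood test, against 3.94% of all 15771 genes. Of these, 5 were higher in heart and 14 in muscle, and the median log2 fold change of the list was -1.46, or -0.80 with genes at 0 in a tissue set at the bound given by their floor, against -0.41 for all genes. The 15771 genes include every gene with a count in these libraries, so their share called is not for genes at levels like those of the list. With library totals in place of TMM factors the median of all genes was 0.12, and the split of all genes called, heart higher against muscle higher, was 576 to 282 in place of 263 to 359.

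Genes higher in heart included the cardiac forms of the release channel and the pump. Ryr2, the cardiac release channel, differed by a log2 fold change of 9.36 (SE 0.86, adjusted p = 9.97e-25). Atp2a2, at a mean of 8053 CPM the most abundant gene of the list in heart, differed by 5.21 (SE 0.48, adjusted p = 1.12e-24). The sodium-calcium exchanger Slc8a1 (5.16), the L-type channel subunit Cacna1c (4.13) and S100a1 (1.96), a calcium-binding regulator of Ryr2 and the pump, made up the rest.

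Genes higher in muscle included 4 of 6 voltage sensor genes, 4 of 5 of the junction between the store and the outer membrane, and both counter-ion channel genes. Parvalbumin (Pvalb) was the most abundant of the list in muscle, with a mean of 22366 CPM, and differed by a log2 fold change of -13.39 (SE 0.66, adjusted p = 2.19e-86). The voltage sensor genes Cacna1s and Cacng1 and the triad protein Jsrp1 had no count in 6 heart libraries and were at least 183-fold, 215-fold and 256-fold higher in muscle by the floor of 3 counts over the group, and at least 121-fold, 142-fold and 169-fold without wild-type heart replicate 1. Jph1 (-6.88), Stac3 (-5.94), Mrln (-5.93), Cacnb1 (-5.22), Tmem38b (-5.08) and Stim1 (-3.31) followed, then Trdn, Tmem38a, Srl and Asph between -2.29 and -1.49. Jph1 and Stac3 were at most at 6.26 CPM in any heart library, below the floor of 3 counts there, so their fitted values are not bounds.
Mrln encodes myoregulin, another small peptide inhibitor of the pump, and Tmem38a and Tmem38b encode counter-ion channels of the store membrane. The 13 genes not called included Calr, Hrc, Jph2 and the FK506-binding proteins Fkbp1a and Fkbp1b. When single libraries were left out, the call of Asph was lost in 9 of 12 fits (adjusted p up to 0.154 by edgeR), that of Cacna1c without Scx-/- heart replicate 2 (0.0741) and that of Srl without Scx-/- heart replicate 3 (0.0736). Asph was also not called with library totals.

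**Figure D5:**
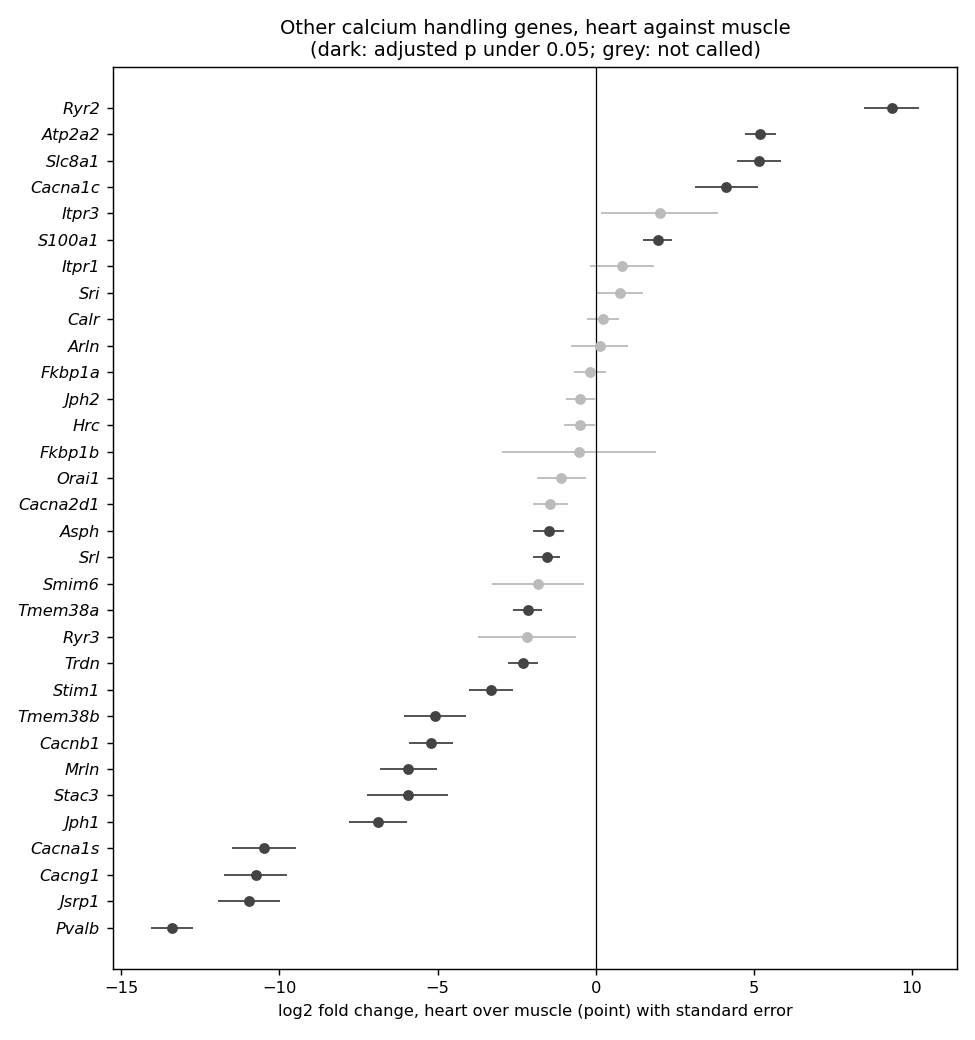
Log2 fold change, heart over muscle, of 32 other calcium handling genes from edgeR's fit, with the standard error as a horizontal bar (dark, adjusted p under 0.05; grey, not called). Ryr2, Atp2a2, Slc8a1, Cacna1c and S100a1 lie to the right among the genes called and 14 genes to the left; Cacna1s, Cacng1 and Jsrp1 were at 0 in heart, so their plotted values are fitted, not bounds.

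Between genotypes, no gene of this list passed the test in any of 4 tissues. In muscle, 0 of 32 genes were called by edgeR, with 2 at an unadjusted p under 0.05, and 0 by DESeq2, also with 2. In heart it was 0 of 27, in bone 0 of 29 and in cartilage 0 of 30, each with 2 at an unadjusted p under 0.05, and DESeq2 called 0 in each, with 1, 3 and 2 at an unadjusted p under 0.05. The list's median log2 fold change was 0.50 in muscle (0.24 for all genes), with 25 genes higher and 7 lower in Scx-/- (78.1% higher, against 57.1% of all genes), and 0.30 with genes at 0 in a genotype set at their bound. In heart 13 were higher and 14 lower (48.3% of all genes were higher), in bone 19 and 10 (51.5%), and in cartilage 12 and 18 (52.2%).
With library totals in place of TMM factors, the median of all genes in muscle was -0.01 and that of the list 0.19. In heart the list's median was -0.03 (-0.06 for all genes), in bone 0.75 (0.08), or 0.63 with bounds, and in cartilage -0.08 (0.07). The order of list and all genes turned when 1 library was left out, at 0.60 against 0.91 in muscle without wild-type replicate 2 and at 0.41 against 0.73 in bone without wild-type replicate 1. It also turned in heart without wild-type replicate 1 (0.39 against 0.47) or 3 (0.10 against 0.24) or with filterByExpr (-0.04 against 0.11), and in cartilage without the library labelled Scx-/- replicate 1 (0.02 against -0.11) or 3 (0.01 against -0.15).

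Atp2a2, the slow and cardiac pump, had the smallest p of this list in muscle. It was measured at 216 to 392 CPM in wild-type and at 54.3 to 81.9 CPM in Scx-/- muscle, with no overlap between the groups. Its log2 fold change was -1.82 (SE 0.67, adjusted p = 0.771 by edgeR), and -1.97 (SE 0.40, adjusted p = 0.000518) without the shallow wild-type replicate 1. The study's own analysis named Atp2a2 as lower in Scx-/- muscle from these same libraries, so this is not independent evidence of its direction. It used DESeq2 with a fold change and a p-value threshold for which no adjustment is stated, unlike the adjusted p given here. Of the 24 genes of the list with a mean of at least 20 CPM in muscle, 7 did not overlap between the groups, against 13.2% of all genes at that level: Hrc, Tmem38a, Stim1 and Orai1 were higher in Scx-/- libraries and Atp2a2, Mrln and Calr were lower. Calr, the calreticulin of the store, was at 317 to 428 CPM in wild-type and 121 to 137 CPM in Scx-/- muscle, and Tmem38a at 1217 to 1696 CPM and 2077 to 2532 CPM. None of the 7 was called, and these genes were named after their values were seen. In heart, 2 of 18 genes did not overlap (Cacna1c higher and Tmem38a lower in Scx-/-), against 11% of all genes, in bone 6 of 22 (5 of them higher) against 9.54%, and in cartilage 4 of 25 (2 of them higher) against 9.73%.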

How the data were processed

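Total RNA from 16 tissues was sequenced in 96 libraries. The paper describes barcoded, pooled, 3′-enriched libraries and the series record a Smart-seq2-based protocol. The deposited values are raw counts per gene symbol, for which the authors aligned reads against mm10 in Bowtie2 and assigned them to genes in HTSeq. The sources used here do not state versions, annotation, strand setting, molecular identifiers, sex or which libraries share a mouse, so p-values measure the spread between libraries, which may be technical, and intervals and floors cover counting error only. Of 41575 symbols, 19082 were at 0 in every library.

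CPM was computed from the deposited counts and library totals (Python 3.11.15, pandas 2.3.3, scipy 1.17.1). Tests used edgeR 4.0.16 (R 4.3.3) with TMM factors, glmQLFit with robust estimation, glmQLFTest, and Benjamini-Hochberg adjustment over all genes with a count in the comparison. Genotype was tested within muscle, heart, bone and cartilage, and heart was tested against muscle with genotype as a covariate. The smallest p of an exact two-sided permutation test of 3 libraries against 3 is 0.1. Alternatives were RLE size factors, library totals, filterByExpr, a replicate block, DESeq2 1.42.0, and leaving out each library. The muscle fit was also run on simulated counts with the same spread for all genes and only large changes, which does not show how it behaves on these libraries. Replicates differed by more than counting error (chi-square over its degrees of freedom, lowest value 6.93).

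Members and gene lists were chosen with earlier results of these data known. The genes named are the members, the called genes of the calcium handling list (up to 10 per direction) and its 3 most abundant in muscle and heart, the 5 genes nearest to each member in pattern, and marker genes. Some genes under this rule are not reported here, and further genes of the list were named after their values were seen. Marker lists of brown fat, erythroid and neuronal genes were summed as well, and in the muscle and heart libraries these sums ran from 559 to 1977, 188 to 4625 and 0 to 362 CPM. Most of the brown fat sum was Cox8b, with means of 812 and 1087 CPM in wild-type and Scx-/- muscle and 1372 and 1643 CPM in heart. Ucp1 had means of 93.9 and 0 CPM in muscle and 4.55 and 0 CPM in heart, so these sums do not measure brown fat. Coordinates come from GENCODE M21, sequences before gene starts from RefSeq.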

Additional observations from a re-analysis of the deposited data

Results flagged for a closer look

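Casq1 separated the genotypes in opposite directions in rectum and heart. Every Scx-/- rectum library was above every wild-type one, with a mean of 203 CPM in Scx-/- rectum, though the nearest libraries (141 and 156 CPM) differed by less than counting error on 7 counts, and every Scx-/- heart library was below every wild-type one, with a mean of 0 CPM in Scx-/- heart. The difference between the tissues was not tested. The part of other tissue in either difference was not tested.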

How the results depend on the processing

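The tissue with the highest mean of each member was the same in all 18 recomputed values, and of 214 recomputed fold changes of members, 203 moved by less than their spread. The number of genes called between genotypes rested on few libraries. In muscle it was 7, and 15 with RLE size factors, 32 with library totals, 3 with the replicate block, 12 with DESeq2, and 4 to 59 when single libraries were left out, the 59 without wild-type replicate 1. In heart it was 5, and 25 with library totals, 2 with filterByExpr, 1 with the replicate block, and 1 to 8 when single libraries were left out. In bone it was 0, with 1 by DESeq2 and 0 to 5 without single libraries, and in cartilage 3, with 0 under filterByExpr, the replicate block and DESeq2 and 0 to 10 without single libraries. Between heart and muscle, 622 genes were called, 387 with filterByExpr (which tests fewer genes), and 799 when both libraries under 100000 counts were left out, an alternative chosen after seeing the data. In the calcium handling list, 0 to 1 genes were called in muscle and in cartilage when single libraries were left out: Atp2a2 in muscle and Fkbp1a in cartilage (log2 fold change -2.36, SE 0.57, adjusted p = 0.0453 by edgeR), each without wild-type replicate 1. Without single libraries, also chosen after seeing the data, the lower bound of Sln in rectum was 25.7- to 77.2-fold, that of Pln in muscle 1.22- to 3.64-fold and that of Casq1 in heart 19.96- to 35.99-fold. The causes were not tested. The replicate numbers shared no deviation (correlations of -0.08 to 0.02), so the replicate block pairs libraries by number only. Under it Casq1 was not called in heart. Of the 5 genes nearest to each member, 1 to 3 were also among the 5 nearest over single libraries. Depth limited the shallow libraries most: 3 counts were 98.7 CPM in wild-type muscle replicate 1 and 267 CPM in wild-type heart replicate 2.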
